A study of Caenorhabditis elegans with 4 samples.

Results

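The genes described here are the math and bath genes of Caenorhabditis elegans, which were taken from the gene table by name: every gene called math or bath followed by a number. There were 83 of them among 46766 genes, 46 math and 37 bath. Wild-type N2 worms, the standard laboratory strain, were synchronized and grown in S-complete liquid medium with E. coli OP50 as food. They received Gengnianchun (GNC), a Chinese herbal formula, at 3.94 mg/mL or water alone as the control, and total RNA was sequenced when they were 22 days old. Each group had 2 libraries, made from populations of worms, and no allele or transgene was present in either group. The labels do not say whether the libraries of a group came from separate cultures, so p-values measure the spread between these libraries, which may be technical. The comparison of GNC with control asked which genes the treatment changed in old wild-type worms.

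The MATH domain (meprin and TRAF homology) is a fold that binds short stretches of other proteins. A BATH protein joins a MATH domain to a BTB domain. The BTB domain docks on the cullin CUL-3, and the MATH domain holds the protein that the ubiquitin ligase is to mark for destruction. The best known worm example, MEL-26, is not named as a bath gene and delivers the katanin subunit MEI-1 for destruction after meiosis in the oocyte. Genes named math encode MATH domains, in many cases without a BTB domain, and most have no described function. MATH-33 is a known exception, a deubiquitinase of the USP7 type that acts on the FOXO factor DAF-16. Both families expanded in nematodes, and most members lie close together in the genome.

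The total count was between 18639631 and 21753657 per library. Counts were scaled with edgeR's TMM method and written as CPM, a level relative to library size, with FPKM where the levels of different genes are compared. A gene was called at an FDR under 0.05, by Benjamini-Hochberg adjustment over the 16341 genes tested with edgeR's quasi-likelihood test, together with a change of at least 2-fold. Replicates of a group differed by more than the sampling noise (chi-square per degree of freedom 6.45 in control against 6.74 in GNC), and the common biological coefficient of variation was 6.67%. Marker genes of oocytes, sperm, early embryos, larvae, intestine and muscle were looked up, and no marker list was at 0. Early embryo markers summed to 72.7 and 71.1 CPM in control against 74.4 and 79.2 CPM with GNC. Larval markers summed to 130.4 and 130.5 CPM in control against 111.3 and 111.7 CPM with GNC. Finding these markers does not check the labelled age or treatment.

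Of the 83 members, 67 passed the filter on low counts and were tested, 31 of 46 math genes and 36 of 37 bath genes. The other 16 were 15 math genes and bath-33, with at most 9 counts in a library. Their summed counts were 43 and 35 in the control libraries against 50 and 49 in the GNC libraries. The gene math-2 had 0 counts in all 4 libraries, which allows up to 3 counts per library, or 0.133 to 0.165 CPM. The untested math-48 had 2 and 2 counts in control against 9 and 9 with GNC. A further 5 math genes (math-15, math-8, math-31, math-21 and math-32) reached the filter's level in the GNC libraries and not in both control libraries, and bath-31 did so in the control libraries alone. The filter therefore favoured high GNC values in those math genes, and bath-31 was favoured by its control values. Counts without these genes, or a statement that they are included, are given beside the main counts.

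The families differed in level. The median over all 37 bath genes was 16.1 FPKM, against 1.10 FPKM over all 46 math genes. The mean level was under 1 FPKM in 22 math and 5 bath genes, and at least 20 FPKM in 2 math and 16 bath genes. The most abundant member was bath-42, at a mean of 142.4 FPKM, followed by bath-40 (95.3 FPKM), bath-43 (88.7 FPKM), math-33 (78.4 FPKM) and bath-41 (76.8 FPKM).

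At an FDR under 0.05, 13 of 31 math genes tested were higher with GNC and 1 lower, and 2 of 36 bath genes tested were higher and 12 lower, while 17 math and 22 bath genes did not pass. Of all genes tested, 19.8% were higher and 20.5% lower at that FDR. Of the 31 math genes tested, 25 had a log2 fold change above 0 and 6 below, and the median was 0.55. Of the 36 bath genes tested, 11 were above 0 and 25 below, and the median was -0.14, against 0.02 for all genes tested. The families were selected on measured values, the changes between GNC and control in these same libraries, and their members were then chosen by name. Counts and medians therefore describe the members and support nothing further. The bath tally depended on the scaling, with 14 above 0 and 22 below with upper quartile normalization and 16 and 20 with library totals, while the math tally was 26 and 5 with both. Both medians kept their signs under each scaling tried, although library totals moved the median of all genes to 0.12. Measured from the median of all genes, the math median was 0.53 and the bath median -0.155 with TMM, with upper quartile normalization and with library totals alike.

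**Figure D1:**
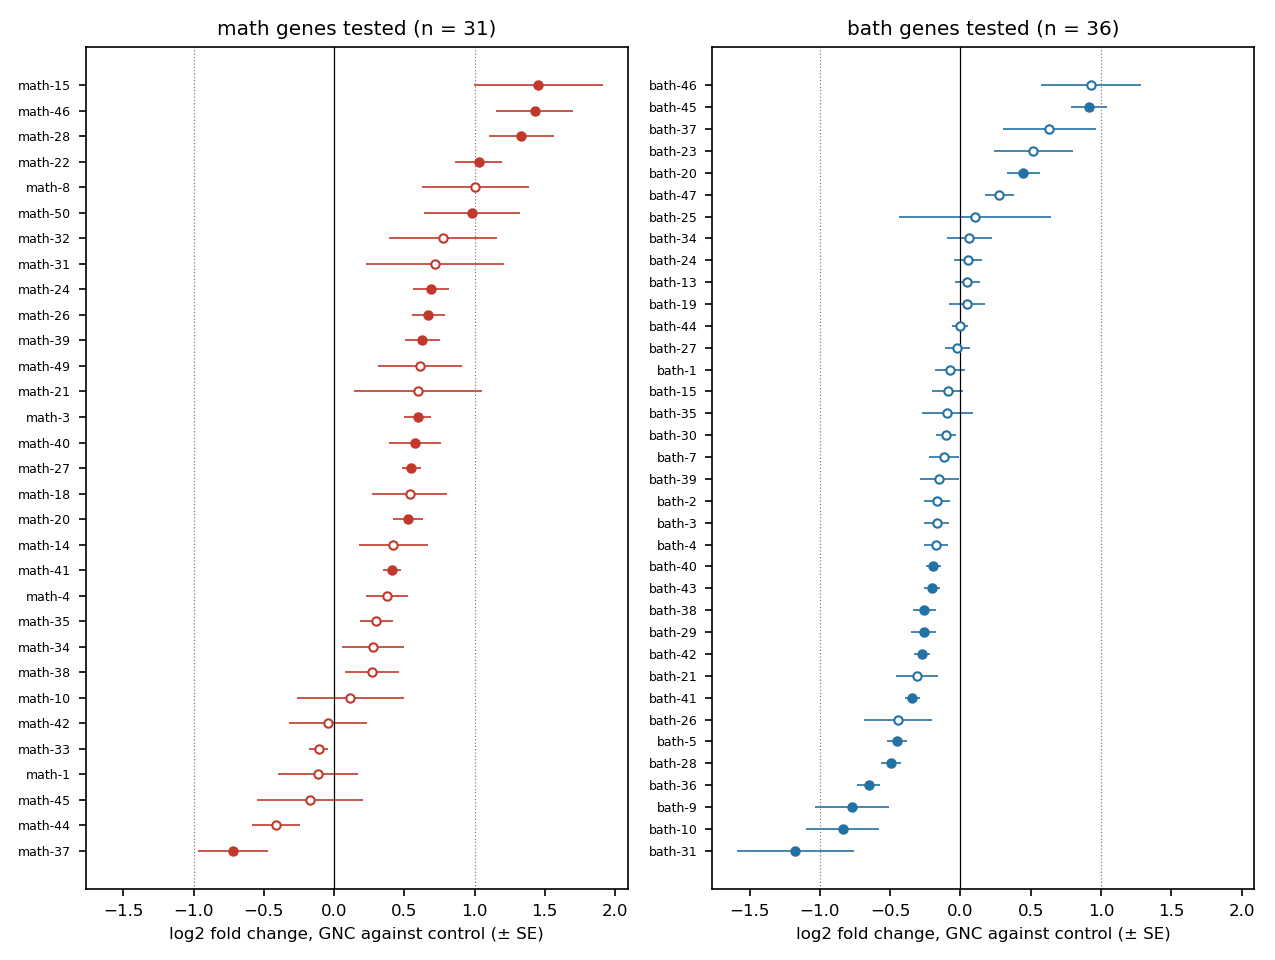
Log2 fold change of GNC against control for the 31 math and 36 bath genes tested, with the standard error from edgeR as bars. Filled points had an FDR under 0.05 and dotted lines mark a 2-fold change; 13 math genes are filled on the higher side and 1 on the lower side, against 2 and 12 bath genes.

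At least 2-fold changes were few. Among the math genes, 4 were called higher (math-46, math-28, math-15 and math-22) and none lower, where 4.97% of all genes tested were called higher and 2.23% lower. Among the bath genes, none was called higher and 1 was called lower, bath-31. Among members that reached the filter's level in both groups, 3 math genes were called higher and no bath gene was called, since math-15 and bath-31 had passed through the group in which they were high. The GNC libraries were both above the control libraries in 23 of the 31 math genes (36.5% of all genes tested), and below them in 20 of the 36 bath genes (34.5% of all genes tested). The 23 include all 5 math genes that passed through the GNC libraries alone, and the 20 include bath-31. For these genes the filter favoured such a separation. Without the 5 math genes that passed through the GNC libraries, 20 of 26 were above 0, 12 were higher and 1 lower at an FDR under 0.05, and the median was 0.47. Without bath-31 and the similarly low bath-25, 10 of 34 bath genes were above 0, 2 were higher and 11 lower, and the median was -0.14. The bath counts and median depended on scaling more than the math counts: with upper quartile normalization, 4 bath genes were higher and 6 lower at that FDR. Leaving out control replicate 2 gave 6 lower bath genes, and leaving out GNC replicate 1 gave 5.

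Of the math genes called, math-28 (WBGene00018102, chromosome II) had 53 and 39 counts in the control libraries against 122 and 147 in the GNC libraries. Its level was 2.47 ± 0.622 CPM (SD, n = 2) in control against 6.23 ± 1.16 CPM (SD, n = 2) with GNC. The log2 fold change was 1.33 (SE 0.23, adjusted p = 0.00156 from edgeR). It was called in each of the 13 alternative fits run over all genes, but not in the test against the 2-fold threshold, which called no member. The gene math-46 (WBGene00021175, chromosome I, 3745589 to 3748220) lies outside the chromosome II groups and overlaps Y8G1A.3. It had 32 and 20 counts in control against 80 and 83 with GNC. The groups did not overlap, and the log2 fold change was 1.43 (SE 0.27, adjusted p = 0.00269 from edgeR).

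For math-22 the counts were 70 and 72 in control against 160 and 176 with GNC, a log2 fold change of 1.03 (SE 0.17, adjusted p = 0.00117 from edgeR). Its replicates were close together and its change was close to the 2-fold threshold. Without GNC replicate 2 it was 0.90, under that threshold. The lowest of the called genes was math-15, with 14 and 6 counts in control against 25 and 39 with GNC. Its log2 fold change of 1.45 (SE 0.46, adjusted p = 0.0299 from edgeR) rested on few counts. The adjusted p was 0.16 without control replicate 2, 0.21 without GNC replicate 2 and 0.101 with DESeq2. The gene math-8, with 11 and 9 counts in control against 27 and 20 with GNC, was at a log2 fold change of 1.01 and just missed the FDR (adjusted p = 0.0587 from edgeR). Both genes lie in a stretch of 12 members, of which 8 had too few counts to be tested.

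**Figure D2:**
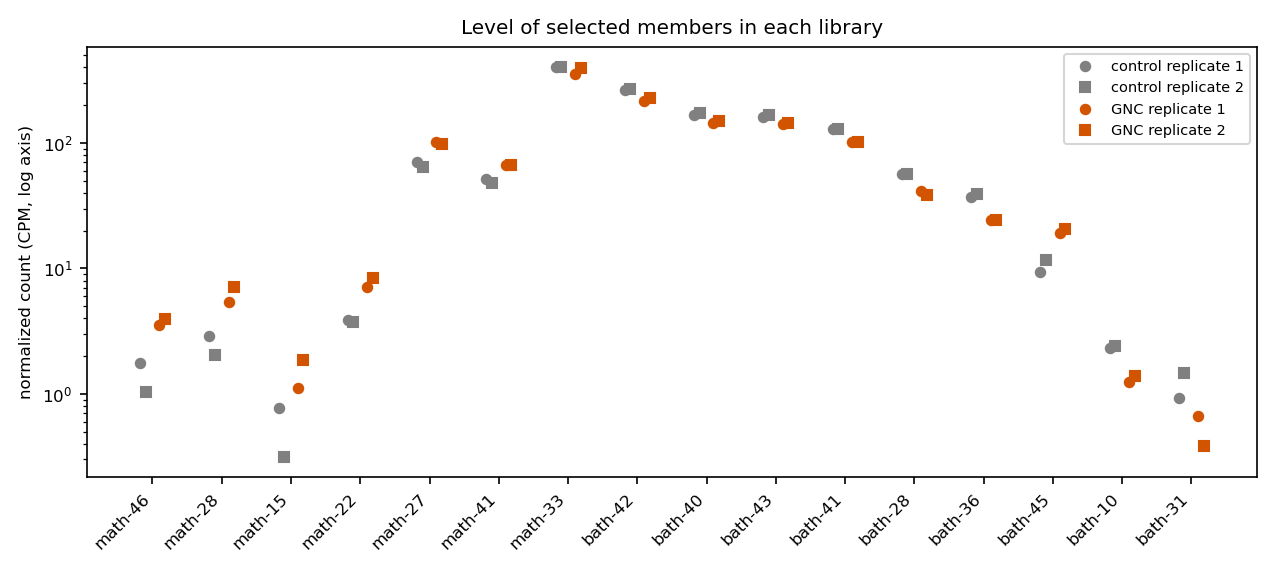
Normalized count (CPM, log axis) of 16 members in each of the 4 libraries, control in grey and GNC in orange, with circles for replicate 1 and squares for replicate 2. The GNC libraries are above the control libraries for math-46, math-28, math-15, math-22, math-27, math-41 and bath-45, and below them for the other members drawn.

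Rises of less than 2-fold were found in 9 further math genes, which are named here after their values were seen. The gene math-27 had 71.1 and 64.3 CPM in control against 101 and 97.2 CPM with GNC, a log2 fold change of 0.55 (SE 0.07, adjusted p = 0.000232 from edgeR). For math-41 the levels were 51.8 and 48.3 CPM in control against 66.3 and 67.0 CPM with GNC, a 1.33-fold rise. The replicates of both genes lay close together and far from the other group. The genes math-24, math-26, math-39, math-3, math-40 and math-20 rose by a log2 fold change of 0.53 to 0.69. The low math-50, with 15 and 11 counts in control against 32 and 28 with GNC, was at 0.98 (adjusted p = 0.0446 from edgeR). Of the 13 math genes higher at an FDR under 0.05, 8 kept that FDR in each of the 13 alternative fits run: math-28, math-27, math-26, math-3, math-41, math-39, math-24 and math-22. The exceptions were math-46 and math-20, which missed it with no filter, and math-40, math-15 and math-50, which missed it in several fits.

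The gene math-37 went the other way, with 70 and 116 counts in control against 76 and 55 with GNC. In CPM these were 3.85 and 6.05 against 3.37 and 2.64, so the groups did not overlap, but control replicate 2 stood apart. The log2 fold change was -0.72 (SE 0.25, adjusted p = 0.0428 from edgeR). Without control replicate 2 it was -0.36 (adjusted p = 0.31 from edgeR), without GNC replicate 2 the adjusted p was 0.14, and without control replicate 1 it was called lower at 2-fold. The 17 math genes that did not pass ranged from -0.41 (math-44, adjusted p = 0.0842 from edgeR) to 1.01 (math-8).

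The deubiquitinase gene math-33 (WBGene00010406, chromosome V) stood apart from its family in level. It had 404 and 406 CPM in control against 357 and 394 CPM with GNC. Both GNC libraries were below control, but they differed from each other by more than GNC replicate 2 differed from control. The log2 fold change was -0.11 (SE 0.07, adjusted p = 0.231 from edgeR). The level of math-33 exceeded that of the other math genes together, so the family was also summed without it. All 46 math genes summed to 644 and 635 CPM in control against 689 and 726 CPM with GNC, a ratio of 1.11. Without math-33 the sums were 241 and 229 CPM in control against 332 and 331 CPM with GNC, a ratio of 1.41. The deposited counts do not show how reads shared between near-identical members were assigned, so single members remain uncertain in that respect.

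**Figure D3:**
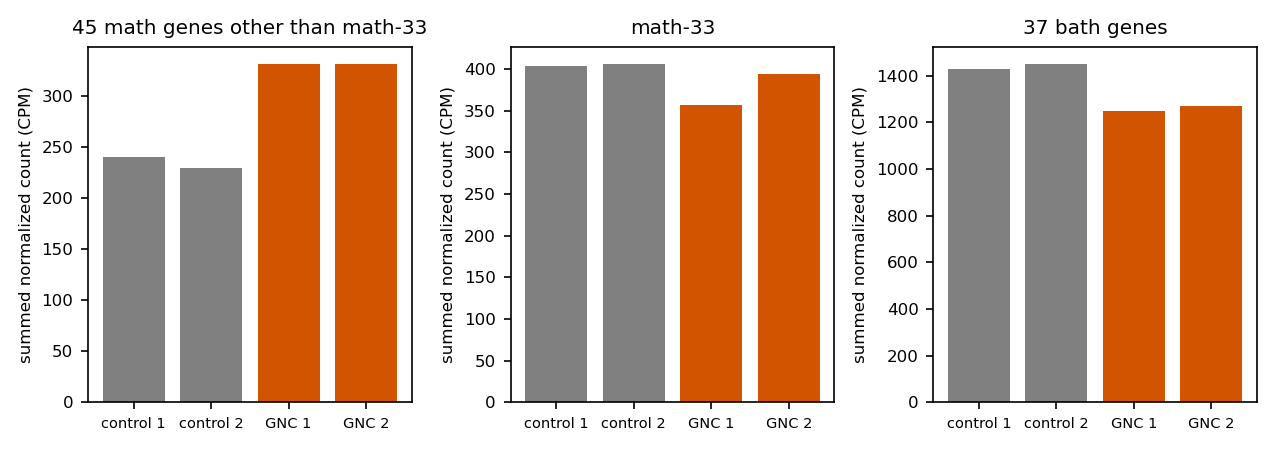
Summed normalized count (CPM) in each library for the 45 math genes other than math-33, for math-33 alone and for the 37 bath genes, on axes that start at 0. The 45 math genes sit at 241 and 229 CPM in control against 332 and 331 CPM with GNC, and the bath genes at 1428 and 1450 against 1250 and 1270 CPM.

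Among the bath genes, the sum was 1428 and 1450 CPM in control against 1250 and 1270 CPM with GNC, a ratio of 0.876. All 6 bath genes at 50 FPKM or more had a log2 fold change of 0 or less, and 4 of them were lower at an FDR under 0.05. Of all genes at 20 FPKM or more, 38.1% were lower at that FDR, and their median was -0.12. The most abundant, bath-42, had 266 and 267 CPM in control against 216 and 226 CPM with GNC, a log2 fold change of -0.27 (SE 0.06, adjusted p = 0.00457 from edgeR). For bath-41 the levels were 128 and 129 CPM against 101 and 102 CPM, with replicates nearly equal in both groups. Its log2 fold change was -0.34 (SE 0.05, adjusted p = 0.000902 from edgeR).

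The gene bath-43, named spop-1 in the annotation after the human CUL-3 adaptor SPOP, had 161 and 168 CPM in control against 141.6 and 144 CPM with GNC. Its log2 fold change was -0.20 (SE 0.06, adjusted p = 0.0166 from edgeR). For bath-40 it was -0.19 (SE 0.06, adjusted p = 0.0216 from edgeR), from 166 and 172 CPM in control to 145 and 150 CPM. The adjusted p of both genes exceeded 0.05 with DESeq2, upper quartile normalization and library totals. Without control replicate 2 it was 0.051 for bath-43 and 0.061 for bath-40, and without GNC replicate 1 it was 0.078 and 0.12. The gene bath-44, at 133 and 129 CPM in control against 130 and 132 CPM with GNC, had a log2 fold change of -0.00 (SE 0.05), and its sign depended on the scaling.

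Larger falls were found at lower levels. The gene bath-36 (WBGene00013569, chromosome V), which overlaps the cyclophilin gene cyn-3, had 669 and 757 counts in control against 549 and 503 with GNC. In CPM it fell from 38.1 ± 1.91 (SD, n = 2) to 24.2 ± 0.152 (SD, n = 2), a log2 fold change of -0.65 (SE 0.08, adjusted p = 0.000276 from edgeR). For bath-10 the counts were 42 and 46 in control against 28 and 29 with GNC, and the log2 fold change was -0.84 (SE 0.26, adjusted p = 0.0266 from edgeR). It was -0.77 for bath-9 (SE 0.26, adjusted p = 0.0396 from edgeR), which overlaps Y49F6C.2 and had 58 and 78 counts in control against 38 and 54 with GNC. The FDR of bath-10 was lost when any 1 library was left out (adjusted p 0.059 to 0.17 from edgeR), and that of bath-9 without control replicate 2 (0.17) or GNC replicate 1 (0.26). The call of bath-31 rested on 17 and 28 counts in control against 15 and 8 with GNC, a log2 fold change of -1.18 (SE 0.42, adjusted p = 0.047 from edgeR). Its adjusted p was 0.27 without control replicate 2, 0.065 without GNC replicate 1, 0.29 without GNC replicate 2 and 0.23 with DESeq2. Of the 12 bath genes lower at an FDR under 0.05, 4 kept that FDR in each of the 13 alternative fits: bath-5, bath-28, bath-41 and bath-36. The remaining genes bath-38 and bath-29, both at -0.26, lost it in 3 of the 4 fits without 1 library. The 22 bath genes that did not pass ranged from -0.44 (bath-26) to 0.93 (bath-46).

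The bath genes that rose were bath-45 and bath-20, named after their values were seen. The gene bath-45 (WBGene00009247) had 169 and 225 counts in control against 428 and 433 with GNC. In CPM it went from 10.5 ± 1.73 (SD, n = 2) to 19.9 ± 1.27 (SD, n = 2), a log2 fold change of 0.92 (SE 0.13, adjusted p = 0.000523 from edgeR), and it kept the FDR in each alternative fit. With bath-20 the change was 0.45 (SE 0.12, adjusted p = 0.0133 from edgeR), from 163 and 181 counts to 281 and 263, and the adjusted p was 0.06 without GNC replicate 2 and 0.078 with DESeq2. The gene bath-46, which overlaps bath-26, was at 0.93 with 11 and 11 counts in control against 27 and 22 with GNC, and did not pass (adjusted p = 0.062 from edgeR).

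Most members lie in 1 region. When members whose neighbouring starts were within 100 kb were joined, 51 of the 83 (41 math and 10 bath) fell into a single cluster on chromosome II, positions 1706709 to 2155220 on WBcel235, a span of 448.5 kb. With a distance of 20 kb the largest cluster had 21 members and with 500 kb it had 59. A second group, of 7 bath genes, lay at positions 3343684 to 3378726 of chromosome II. Positions are those of the deposited table, and 15 of the 83 members had identical positions in the annotation used here (Ensembl release 115 of WBcel235).

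Within the chromosome II cluster, stretches of bath genes lie between stretches of math genes, and the families had medians of opposite sign. Of its 26 math genes tested, 22 had a log2 fold change above 0, 12 were higher and 1 lower at an FDR under 0.05, beside the 19.8% and 20.5% of all genes, and the median was 0.59. Without the 5 genes that passed through the GNC libraries alone, all of them in this cluster, 17 of 21 were above 0, 11 were higher and 1 lower, and the median was 0.54. Of its 10 bath genes, 3 were above 0, 1 was higher (bath-20) and 1 lower (bath-5), and the median was -0.14. The cluster's math genes summed to 232 and 221 CPM in control against 320 and 318 CPM with GNC. Its bath genes summed to 218 and 216 CPM in control against 195 and 190 CPM with GNC. The span also holds 116 other genes, of which 70 were tested: 13 were higher and 21 lower at that FDR, and the median was -0.06. Their changes were spread widely, with quartiles of -1.02 and 0.44. At 2-fold, 6 of them were called higher and 18 lower, where 4.97% and 2.23% of all genes tested were.

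**Figure D4:**
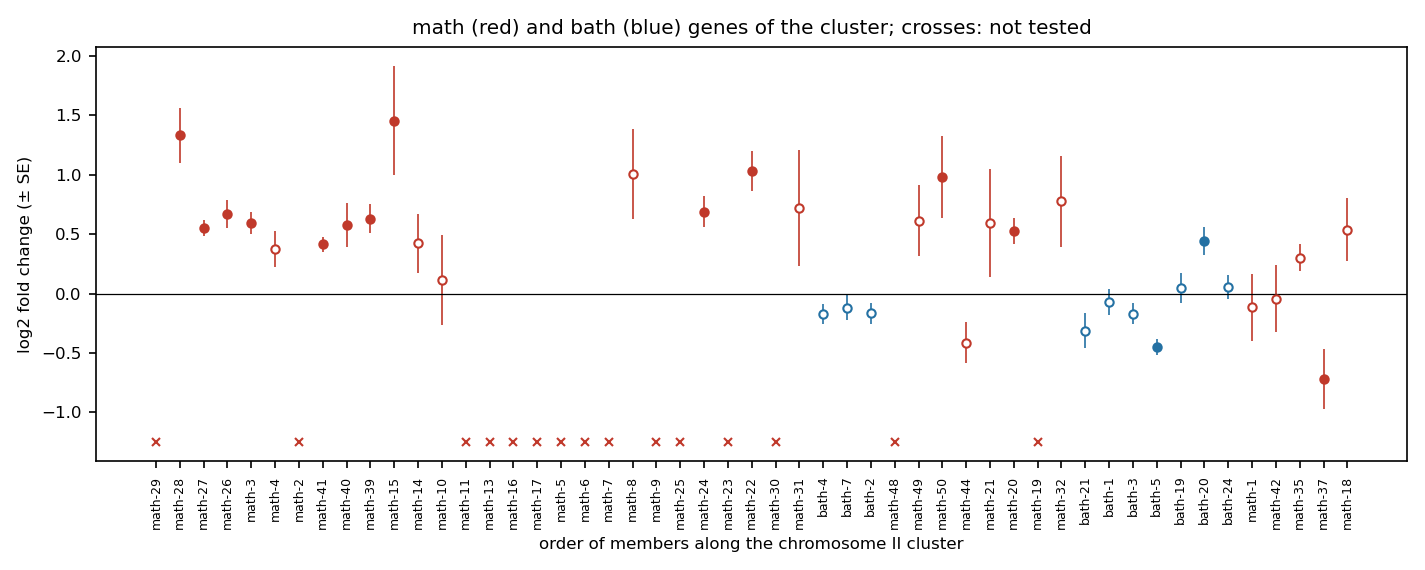
Log2 fold change (with SE bars) of the 51 members of the chromosome II cluster in their order along the chromosome, math in red and bath in blue, filled where the FDR was under 0.05 and crosses where the gene was not tested. The 8 tested genes from math-28 to math-39 are all above 0, while the 3 neighbouring genes bath-4, bath-7 and bath-2 are all slightly below.

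Stretches of consecutive members were delimited after the values were seen. Their counts at an FDR under 0.05 stand beside 19.8% higher and 20.5% lower of all genes tested. From math-28 to math-39, 9 members in a row, 8 were tested, all 8 had a log2 fold change above 0 and 7 passed the FDR, with a median of 0.59. The exception was math-4, at 0.37 (adjusted p = 0.0698 from edgeR). This stretch summed to 170 and 161 CPM in control against 241 and 239 CPM with GNC. From math-15 to math-9, 12 members in a row, 4 had enough counts to be tested. From math-25 to math-31, 3 of 6 were tested, and math-24 and math-22 were higher. The last stretch, math-1 to math-18, had 5 tested genes with changes in both directions and a median of -0.04. In the bath stretches, bath-4, bath-7 and bath-2 were at -0.18, -0.12 and -0.17 and none passed. From bath-21 to bath-24, 1 of 7 was higher and 1 lower.

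The gene bath-5 (WBGene00019141), in the last of these stretches, had 59.3 and 56.7 CPM in control against 43.2 and 41.6 CPM with GNC. Its log2 fold change was -0.45 (SE 0.07, adjusted p = 0.00076 from edgeR), while bath-3, beside it, was at -0.17 and did not pass (adjusted p = 0.163 from edgeR). In the second chromosome II group, 4 of 7 bath genes were lower at an FDR under 0.05: bath-28, bath-29, bath-10 and bath-9. Of all genes tested, 20.5% were lower at that FDR, and the median of the group was -0.26. There bath-28 went from 56.1 and 56.5 CPM to 41.1 and 38.8 CPM, a log2 fold change of -0.50 (SE 0.07, adjusted p = 0.000492 from edgeR). Its neighbour bath-30 was at -0.10 (adjusted p = 0.278 from edgeR) and above 0 with limma.

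The annotation lists 9 members, all math genes, as pseudogenes. Of these, 4 were tested (math-27, math-50, math-32 and math-35). All 4 had a log2 fold change above 0, and math-27 and math-50 passed the FDR. The most abundant math gene of the cluster by count, math-27, was therefore a locus without an annotated protein. The median was 0.66 over the 4 pseudogenes tested and 0.54 over the 27 protein-coding math genes tested. The 4 include math-32, and the 27 include math-15, math-8, math-31 and math-21, which passed the filter through the GNC libraries alone. These medians are therefore not compared. The pseudogenes other than math-32 were at 0.55 (math-27), 0.98 (math-50) and 0.30 (math-35). The span of 13 members overlaps another gene, and the sources used here do not state whether counting used the strand, so reads of such pairs cannot be told apart.

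The changes were also read beside the level, since the fold change of all genes varied with it. At 20 FPKM or more, where 16 bath genes lie, all genes had a median of -0.12, with 14.99% higher and 38.1% lower at an FDR under 0.05. The 16 bath genes had a median of -0.20 there, with 9 of 16 lower and none higher. Between 5 and 20 FPKM, all genes had a median of 0.12, with 31.3% higher and 12.5% lower. In that range the 7 math genes tested had a median of 0.59, with 6 of 7 higher, and the 12 bath genes had a median of -0.08, with 2 higher and none lower. Between 1 and 5 FPKM the 15 math genes had a median of 0.54 and the 4 bath genes one of -0.61, with 2 of 4 lower, against 0.20 and 7.39% lower for all genes. Those 15 math genes include math-15 and math-31, which passed the filter through the GNC libraries alone. Under 1 FPKM the 7 math genes had a median of 0.60, with 1 higher, and the 4 bath genes one of 0.37, with 1 lower. All genes there had a median of 0.16, with 7.59% higher and 5.33% lower. In that range math-8, math-21 and math-32 passed the filter through the GNC libraries alone, and bath-31 through the control libraries alone. No test was made of these differences.

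**Figure D5:**
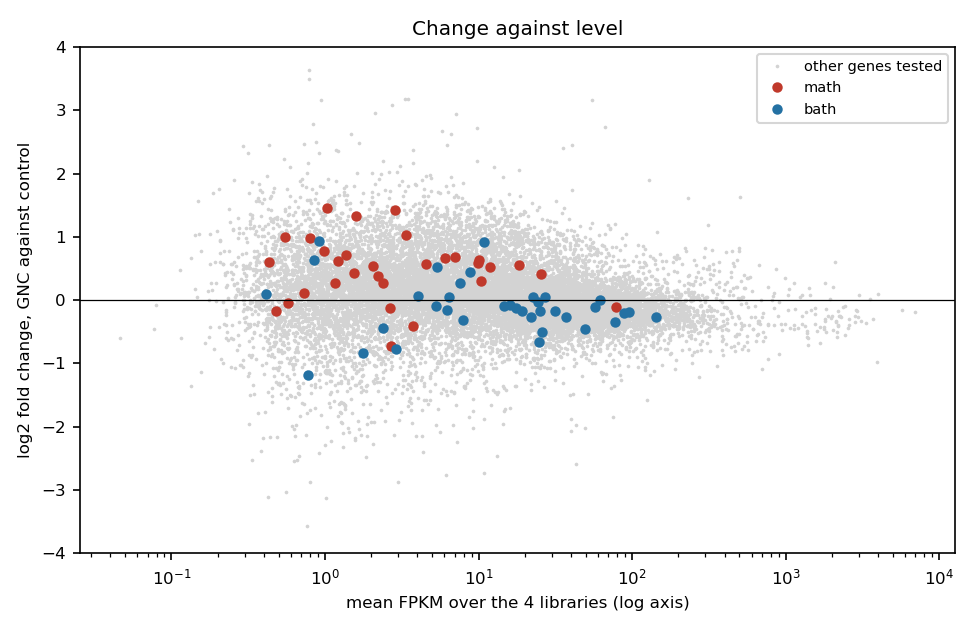
Log2 fold change of GNC against control, plotted against the mean FPKM of the 4 libraries (log axis), for all genes tested (grey; 6 genes beyond 4 on the log2 scale are not drawn), math genes (red) and bath genes (blue). Most math points lie above 0 at low and middle levels, and the bath points at 20 FPKM or more lie near or below 0 among the grey points.

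The partners of the BATH proteins were described from a list of 20 genes of the CUL-3 ligase and its regulators. All 20 were tested, none was called at 2-fold, 12 were lower and none higher at an FDR under 0.05, and the median was -0.19. Their median level was 86.8 FPKM, and of all genes at 20 FPKM or more 38.1% were lower, with a median of -0.12. The scaffold gene cul-3 had 267 and 256 CPM in control against 231 and 245 CPM with GNC, a log2 fold change of -0.13 that did not pass (adjusted p = 0.103 from edgeR). The adaptor gene mel-26 went from 222 and 227 CPM to 181 and 188 CPM, a log2 fold change of -0.28 (SE 0.06, adjusted p = 0.0032 from edgeR). The gene ned-8 encodes the ubiquitin-like protein that activates cullins. It fell from 942 and 863 counts to 763 and 665 counts, a log2 fold change of -0.56 (SE 0.09, adjusted p = 0.00088 from edgeR). For rbx-1, the RING subunit that recruits the ubiquitin-conjugating enzyme, the levels were 169 and 163 CPM in control against 125 and 69.5 CPM with GNC. Its GNC libraries differed from each other by more than GNC replicate 1 differed from control. The log2 fold change was -0.77 (SE 0.20, adjusted p = 0.0111 from edgeR, 0.153 with DESeq2), and it was -0.41 without GNC replicate 2 and -1.26 without GNC replicate 1. The targets of MEL-26, mei-1 and its partner mei-2, were at -0.27 and -0.53, both lower at an FDR under 0.05.

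Genes with related domains moved in different directions. Of 16 tested genes named btb, 4 were called lower (btb-6, btb-8, btb-10 and btb-11) and the median was -0.18. Of all genes tested, 2.23% were called lower. At an FDR under 0.05 without the fold threshold, 2 btb genes were higher and 4 lower, beside 19.8% and 20.5% of all genes. Without GNC replicate 1, btb-6 was at -0.86 and btb-8 at -0.69, both under 2-fold, as were btb-6 without control replicate 1 (-0.94) and btb-8 without control replicate 2 (-0.85). The genes btb-6 and btb-8 lie within the chromosome II cluster, as does btb-9, which was at 0.89 (adjusted p = 0.000549 from edgeR). A list of 20 deubiquitinase genes, the class to which MATH-33 belongs, had a median of -0.16, with 8 lower and none higher at an FDR under 0.05. Their median level was 52.6 FPKM, so the same 38.1% of all genes applies beside that count. F-box proteins, the adaptors of another cullin ligase, also form large worm families. Their medians were 0.25 for 143 fbxa genes tested, -0.82 for 65 fbxb genes and -0.21 for 31 fbxc genes. The gene trf-1, a TRAF gene with a MATH domain, was at 0.15 and did not pass.

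Markers of the germline and of sperm differed between the same groups. The counts below stand beside 19.8% higher and 20.5% lower of all genes tested at an FDR under 0.05. Of 17 oocyte and maternal genes, 14 were lower and 2 (perm-2 and perm-4) higher at an FDR under 0.05, with a median log2 fold change of -0.58, while their sum was 5328 to 6018 CPM in control against 5471 to 5911 CPM with GNC. Of 13 sperm genes, 7 were higher and none lower, and their sum was 316 and 322 CPM in control against 423 and 436 CPM with GNC. The part of these markers in the values of the math, bath and CUL-3 genes was not tested. In bulk RNA of worms, fewer cells of a type and less RNA per cell cannot be told apart. Of the other lists, the early embryo markers had 1 higher and 2 lower of 13 tested, the larval markers 2 lower of 6, the intestinal markers 2 higher and 4 lower of 8, and the muscle markers 1 higher and 1 lower of 5. The early embryo shares (7.69% and 15.4%) were under those of all genes, and the muscle shares (20% and 20%) were near them.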

How the data were processed

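RNA-seq was analysed from 4 libraries, 2 of GNC-treated and 2 of control worms. The submitters' processing notes name CASAVA 1.8, TopHat2 2.1.0, Cuffdiff and the genome build WBcel235. The counter, the annotation and the use of strand are not given in the sources used here. The authors deposited raw counts per gene and FPKM values. The deposited FPKM equalled the count over a gene length and the library total, to within 1%, for all 10376 genes whose counts reached 100 in the 4 libraries.

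Members were chosen by gene name, and all members, lists and tests were chosen with earlier results of these data known. Counts were filtered with filterByExpr, scaled by TMM and tested with the quasi-likelihood F-test in edgeR 4.0.16 (R 4.3.3), with group alone in the model and Benjamini-Hochberg adjustment over 16341 genes. Calls required an FDR under 0.05 and at least a 2-fold change. The procedure was tested on simulated data. The genes named were those called, the 5 most abundant, the 5 largest and 5 smallest log2 fold changes, math-33, bath-42, bath-43, mel-26, cul-3, rbx-1 and ned-8, and called genes of the CUL-3, btb and deubiquitinase lists. Other genes named, and the stretches of the cluster, were chosen after their values were seen. Names and biotypes came from Ensembl release 115, matched by identifier for all 83 members, 73 of which carried the same name there. The list genes usp-50, duo-2 and trf-2 were not matched by name. Alternatives were DESeq2 1.42.0, edgeR's exact test, upper quartile normalization, library totals, rescaling to a median of 0, no filter, at least 10 counts in every library, limma 3.58.1 on log2(FPKM + 0.1), where 2 or more libraries reached 1 FPKM, a replicate block, a test against the 2-fold threshold and leaving out each library. Levels are precise only as far as the counts behind them: 3 counts correspond to 0.133 to 0.165 CPM. Counting error is the least error of a value. Protein and promoter sequences were not used here.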

Additional observations from a re-analysis of the deposited data

How the results depend on the processing

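The count of bath genes called at 2-fold changed direction with the processing. It was 0 higher and 1 lower in the main fit. With upper quartile normalization and with limma it was 1 higher and 0 lower, and with library totals 2 higher and 0 lower. No median or sum of a family and no gene named by rule changed direction under the alternatives run. Other members with small changes did: 6 bath genes with limma, 5 with library totals (bath-1, bath-15, bath-27, bath-35 and bath-44), 3 with upper quartile normalization, 2 with no filter and 1 with DESeq2 and with at least 10 counts, and math-42 with upper quartile normalization and library totals. From 1 to 3 members of each family did so when 1 library was left out. Among 293 alternative values for the 23 named genes, 231 stayed on the same side of the threshold, 59 fell short of it and 3, all of math-8, passed it. The 4 math genes called higher became 2 with no filter and 0 when tested against the 2-fold threshold, and the 13 at an FDR under 0.05 became 8 with no filter. The 1 lower math gene at that FDR became 0 with DESeq2, upper quartile normalization, library totals, no filter and limma. The 1 bath gene called lower became 0 with DESeq2, upper quartile normalization, library totals, no filter, at least 10 counts in every library, limma and the test against the 2-fold threshold. Bath genes called higher were 1 with upper quartile normalization and with limma, and 2 with library totals. At an FDR under 0.05, higher bath genes were 1 with DESeq2 and no filter and 4 with upper quartile normalization, library totals and at least 10 counts. Lower bath genes were 5 with DESeq2 and no filter, 6 with upper quartile normalization and library totals, and 4 with limma. Over all genes, higher and lower genes at that FDR were 3240 and 3355 in the main fit and 2224 and 2254 with DESeq2. They were 1573 and 1042 with no filter and 3226 and 3245 with at least 10 counts. With upper quartile normalization they were 4033 and 2391, with library totals 4349 and 2125, and with limma 3218 and 1411. The number of genes tested differed between some of these fits.

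The math median was 0.63 with upper quartile normalization, 0.65 with library totals or limma, and 0.48 with at least 10 counts. The bath median was -0.058 with upper quartile normalization, -0.034 with library totals, -0.033 with limma, -0.15 after rescaling and -0.12 with no filter. The log2 ratio of summed math levels was 0.22 and 0.25 with upper quartile normalization and library totals (0.14 with TMM). That of bath levels was -0.11, -0.090 and, after rescaling, -0.21 (-0.19 with TMM). The shift of all genes by the scaling itself gives the changes under upper quartile normalization, library totals and rescaling, and the cause of the others was not tested. The limma fit used FPKM, which carry no TMM scaling, and its median of all genes was 0.094. Measured from that median, the math median was 0.56 and the bath median -0.13 with limma.

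Leaving out 1 library in turn gave 2 to 4 math genes called higher, 0 to 1 lower, 10 to 12 higher and 0 to 2 lower at an FDR under 0.05, and a median of 0.43 to 0.59. For bath genes it gave 0 to 2 called higher, 0 to 1 lower, 1 to 3 higher and 5 to 9 lower at that FDR, and a median of -0.17 to -0.14. The log2 ratios of sums ranged from 0.11 to 0.18 and from -0.20 to -0.18. The lowest math call count came without GNC replicate 2, and the lower math call (math-37) without control replicate 1.

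Replicate numbers are shared between the groups, but the deviations of libraries sharing a number were nearly uncorrelated (r = 0.04 over genes, which are not replicates). In the fit with a replicate block, the math median was 0.55 and the bath median -0.14, 829 genes were called higher and 367 lower over all genes, and no count of members changed.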
